A study of Homo sapiens and Mus musculus with 20 samples.

Results

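Metallothionein and zinc-response genes were followed in IMR90 human lung fibroblasts under 3 treatments. The set held 8 genes chosen by name: the metallothioneins MT1E, MT1F, MT1G, MT1M, MT1X and MT2A, the transcription factor MTF1 and the zinc exporter SLC30A1. Of these, 6 were listed in at least 1 of the IMR90 tables, out of 17554 genes listed in at least 1 table. MT1E, MT1X, MT2A, MTF1 and SLC30A1 were listed in all 3 tables and MT1F was listed in the A485 table, while MT1G and MT1M were not analysed here. All listed members passed the filter for testing, a mean of at least 10 normalised reads over the 4 libraries of a comparison.

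Metallothioneins are small, cysteine-rich proteins that bind zinc and copper and buffer free metal in the cytosol. When zinc rises, the zinc-finger factor MTF1 binds short metal response elements in their promoters and switches them on. SLC30A1 (ZnT1) sits in the plasma membrane, moves zinc out of the cell and is itself an MTF1 target, so that its mRNA is widely used together with metallothionein mRNAs as a readout of cellular zinc. Metallothioneins are also known to respond to glucocorticoids and oxidants.

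On hg38, MT2A (16:56608584-56609497), MT1E (16:56625475-56627112), MT1F (16:56657731-56660698) and MT1X (16:56682470-56684196) lie on the plus strand of one metallothionein cluster on chromosome 16. MTF1 (1:37809574-37859592) and SLC30A1 (1:211571568-211579161) lie on the minus strand of chromosome 1. RefSeq promoter sequences (GRCh38.p14) matched 4 of the 8 members, namely MT2A, MT1X, MTF1 and SLC30A1. The 250 bases before each start were searched on both strands for the core of the metal response element, written as TGCACNC and TGCGCNC. The promoters of MT2A and MT1X are shown because they carried the most matches among the members, and that of SLC30A1 because it encodes the exporter of the set. Each is written 5′ to 3′ along its gene, and capitals mark the matches, which did not overlap one another.

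MT2A, chr16:56608334-56608583, plus strand: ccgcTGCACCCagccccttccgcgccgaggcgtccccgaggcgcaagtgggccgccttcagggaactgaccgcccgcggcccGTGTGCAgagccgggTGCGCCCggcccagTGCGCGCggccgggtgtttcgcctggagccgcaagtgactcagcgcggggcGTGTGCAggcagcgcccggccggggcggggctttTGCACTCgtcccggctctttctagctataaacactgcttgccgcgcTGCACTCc
MT1X, chr16:56682220-56682469, plus strand: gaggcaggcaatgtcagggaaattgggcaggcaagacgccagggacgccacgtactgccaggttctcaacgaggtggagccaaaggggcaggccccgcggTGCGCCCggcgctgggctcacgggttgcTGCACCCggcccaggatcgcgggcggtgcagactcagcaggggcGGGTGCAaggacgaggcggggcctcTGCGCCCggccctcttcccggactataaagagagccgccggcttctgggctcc
SLC30A1, chr1:211579162-211579411, minus strand: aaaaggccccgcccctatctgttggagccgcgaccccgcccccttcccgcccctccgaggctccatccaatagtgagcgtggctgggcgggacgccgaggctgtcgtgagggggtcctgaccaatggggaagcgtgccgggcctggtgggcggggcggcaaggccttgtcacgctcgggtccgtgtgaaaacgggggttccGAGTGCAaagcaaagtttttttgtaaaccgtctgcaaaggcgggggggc

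The MT2A window held 7 matches and the MT1X window held 4. The SLC30A1 window held 1 match, and the MTF1 window held 0 of these letters. Among 35116 RefSeq promoters cut to the same length, 24.8% held at least 1 match, 0.37% held at least 4 and 0.0513% held at least 6. In MT2A the match nearest the start ended 2 bases before it, and in MT1X the nearest ended 47 bases before it. A match is a description of the letters in the window and not a measured binding site.

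The IMR90 libraries were of WT genotype, with 2 libraries per group. A485 (a p300 inhibitor) was set against Control2, MS-275 (a class I histone deacetylase inhibitor) against Control3 and Pyruvate against Control6, where the controls were labelled as untreated. The study gave pyruvate to senescent IMR90 cells, while the passage of each library, the dose and the duration were not given in the labels. IMR90 is a single fibroblast strain from embryonic lung, and nothing states that the replicates were separate cultures, so that p-values measure the spread between these libraries, which may be technical. If the common step of the values is 1 read, the libraries held 24179065 to 46971227 reads each, of which 2.77% to 6.90% came from mitochondrial genes. Of the 9 fibroblast markers, all were listed in each table, and their summed values ran from 5.55e+05 to 2.22e+06. The summed epithelial markers were between 1265 and 3595, the endothelial markers between 0 and 203, and the leukocyte markers between 0 and 46.3. Because metallothioneins are near-identical copies of one another and the handling of reads that map to several genes was not given, the split of reads among MT1E, MT1F, MT1X, MT2A and the pseudogene MT1L is uncertain in every value below. In these bulk libraries, fewer cells with a transcript and less RNA per cell cannot be told apart.

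The members spanned a wide range of levels. Per kilobase of merged exon, MT2A was the highest in every group, with a mean of 10225 ± 465 (SD, n = 2) normalised reads in Control2, 9560 ± 5206 in Control3 and 16276 ± 1352 in Control6. MT1E came next in all 6 groups, with control means of 1502, 1632 and 834 per kilobase in the same order. SLC30A1 followed in the 3 control groups, at 428, 293 and 39.9 per kilobase, and then MTF1, at 158, 113 and 29.5. MT1X was the lowest of the 5 shared members in the controls, at 43.4, 31.7 and 29.0 per kilobase. This order rests on the merged exon length, 1.73 kb for MT1X and 7.99 kb for MTF1, and other length choices were not tried. Neighbours in this order did not overlap between libraries in the controls, except for MTF1 and MT1X in Control6. The order changed in the A485 libraries, where the per-kilobase level of MT1X (mean 204) overlapped that of MTF1 (mean 187), and in the Pyruvate libraries, where MTF1 (87.7) lay above SLC30A1 (80.9). In the MS-275 libraries the per-kilobase levels of MT1E and SLC30A1 overlapped. Each table was normalised on its own, so levels set across tables are a description. The plot of values by library shows each of these levels before scaling by length.

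**Figure D1:**
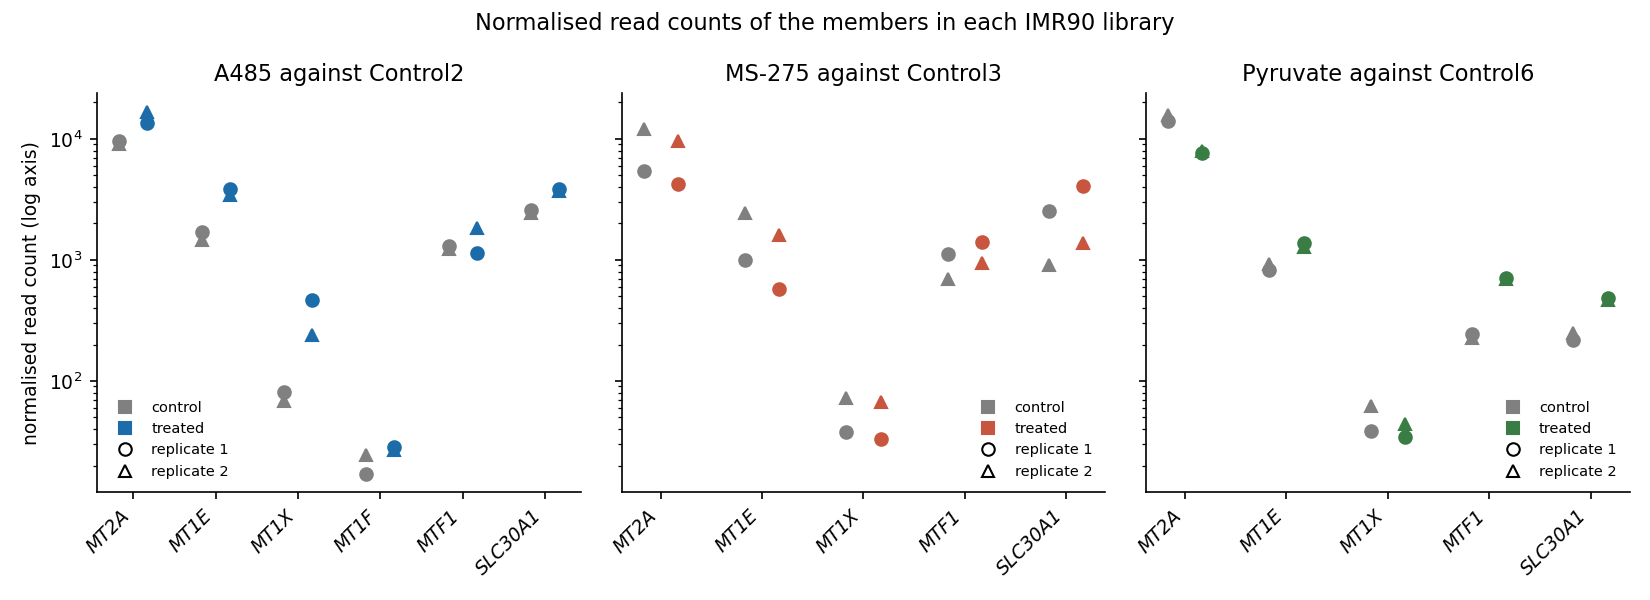
Normalised read counts (log axis) of the listed members in each IMR90 library, one panel per comparison, with grey points for the control libraries, coloured points for the treated libraries, circles for replicate 1 and triangles for replicate 2. The A485 points lie above their controls for every member but MTF1, and the share of all genes with this pattern was not counted. The MS-275 points separate by replicate number more than by treatment. In the Pyruvate panel MT2A lies below its controls, while MT1E, MTF1 and SLC30A1 lie above them.

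The A485 comparison asked what inhibition of p300 does to these transcripts. MT1E and MT1X rose, MT1E 2.30-fold and MT1X 4.69-fold as ratios of the group means. MT2A, SLC30A1 and MT1F were also higher in both A485 libraries than in both controls but did not pass the test as fitted here, and MTF1 overlapped. How many of all genes separated in this way was not counted, so the separation is a description. A gene was called when limma gave a Benjamini-Hochberg adjusted p under 0.05 and a log2 fold change above 1 in size. By this rule 2 of the 6 tested members were called higher and 0 were called lower, beside 3.31% of all 16084 tested genes called higher and 7.06% called lower. The median log2 fold change was 0.64 over the 6 members and 0.0088 over all genes.

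MT1E was at 3815 and 3467 normalised reads in the A485 libraries and at 1710 and 1449 in Control2. The groups were far apart and the replicates close, which gave a log2 fold change of 1.21 (SE 0.18, limma adjusted p = 0.0125). MT1X was at 465 and 238 in the A485 libraries and at 81.3 and 68.5 in Control2. Both A485 values were well above the controls, yet A485 replicate 1 was far above replicate 2, and the log2 fold change of 2.14 carried an SE of 0.43 (limma adjusted p = 0.0299). With 1 library left out, the log2 fold change ran from 1.09 to 1.33 for MT1E and from 1.66 to 2.62 for MT1X. Those fits had 1 library in a group, so they could not decide whether a call held. Both calls were lost when limma was run without its intensity trend (adjusted p = 0.0630 for MT1E and 0.0693 for MT1X).

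MT2A, the most abundant metallothionein, was at 13430 and 16774 in the A485 libraries and at 9646 and 9045 in Control2. Its libraries did not overlap between groups, and the log2 difference of 0.68 (SE 0.19) came with a limma adjusted p of 0.0644. SLC30A1, the exporter, was at 3873 and 3705 under A485 and at 2600 and 2447 in Control2. The groups did not overlap, with a log2 difference of 0.59 (SE 0.16, limma adjusted p = 0.0628). Both results depended on the fit: DESeq2 on the recovered reads gave adjusted p of 0.0148 for MT2A and 0.0283 for SLC30A1, removal of the trend with length and GC gave 0.0268 and 0.0355, and MT2A was called with equal totals (log2 1.08, limma adjusted p = 0.0106) and with quantile normalisation (1.08, 0.0133). MT1F, the least abundant listed member, was at 28.7 and 26.7 under A485 and at 17.1 and 24.5 in Control2. Its values were too low and too spread for a call, with a log2 difference of 0.42 (SE 0.56, limma adjusted p = 0.657). MTF1, which encodes the metal sensor, was at 1144 and 1842 under A485 and at 1306 and 1226 in Control2. A485 replicate 1 lay below both controls and replicate 2 above them, and the log2 difference of 0.20 had an SE of 0.26 (limma adjusted p = 0.655).

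MT1L, a transcribed pseudogene that lies between MT2A and MT1E, was the only one of 13 other metallothionein genes listed in the tables. It was at 26.1 and 4.45 in the A485 libraries against 111 and 154 in Control2. This was opposite in sign to the differences of MT2A and MT1E on both sides of it, with a log2 fold change of -3.44 (SE 0.83, limma adjusted p = 0.0481). The MT1L call stood close to the threshold: it was lost in edgeR (adjusted p = 0.0563) and under 5 other settings (limma adjusted p from 0.0521 to 0.106). With 1 library left out, the MT1L log2 fold change ran from -4.60 to -2.28. Fibroblast markers moved in the same libraries: 8 of the 9 were called lower under A485, beside 7.06% of all genes. Their summed value was 5.55e+05 and 6.68e+05 in the A485 libraries against 1.85e+06 and 2.22e+06 in Control2. The part of this shift in the metallothionein result was not tested. When libraries were scaled to equal totals, the all-gene median moved to 0.40 and the calls over all genes moved from 532 higher and 1135 lower to 1677 higher and 901 lower. On that scaling the members' median was 1.03.

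**Figure D2:**
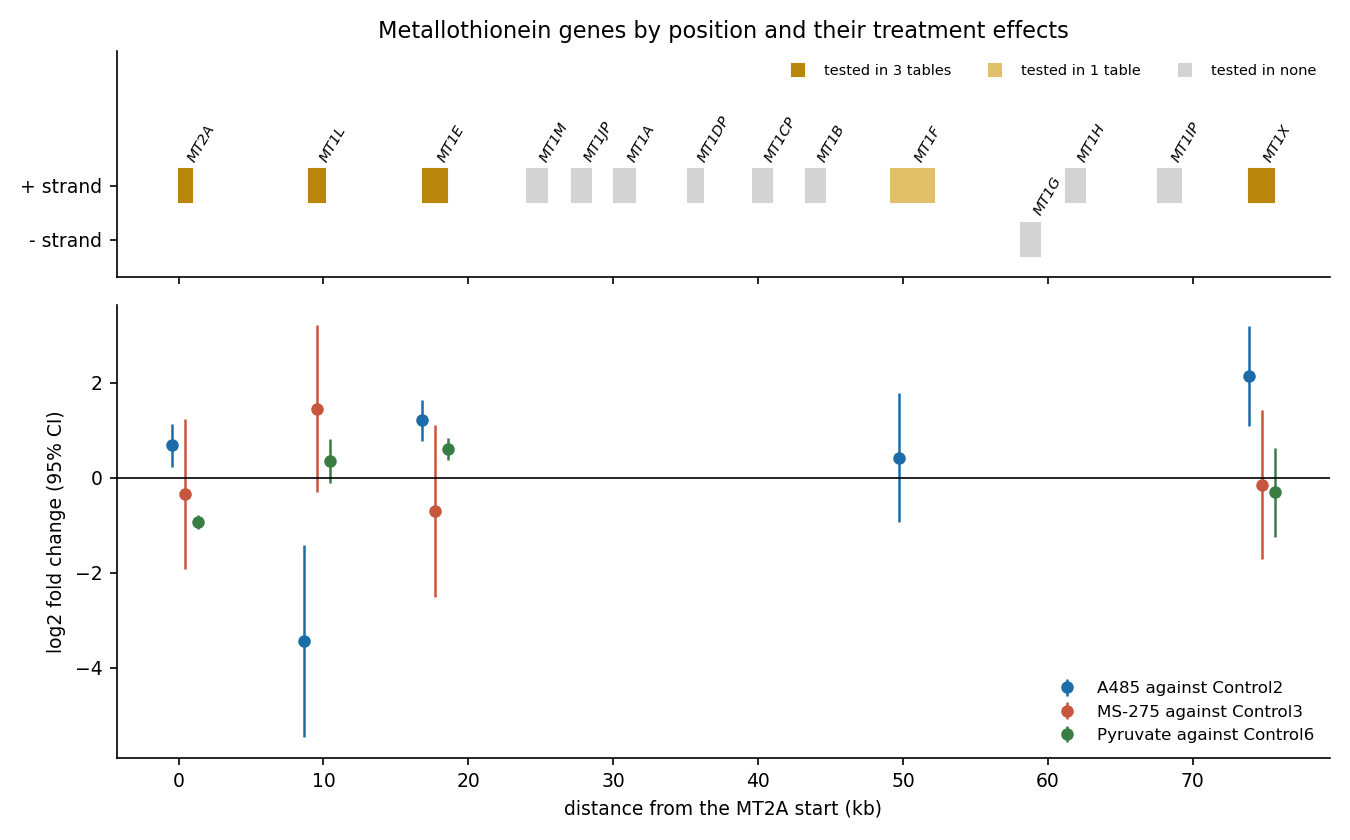
Upper panel, metallothionein genes of the chromosome 16 cluster at their distance (kb) from the MT2A start, by strand and by the number of tables in which they were tested. Lower panel, log2 fold change of the tested genes in each comparison with 95% confidence intervals. The A485 points are above 0 at MT2A, MT1E, MT1F and MT1X and at -3.44 at MT1L, which starts 8.98 kb from the MT2A start.

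The MS-275 comparison asked what inhibition of class I deacetylases does. No member passed the test in either direction. In libraries with the same replicate number, the 3 metallothioneins were lower with MS-275 and MTF1 and SLC30A1 were higher, by amounts that were close in both numbers but smaller than the distance between the numbers for each of the 5. Without the block, limma called 0 of the 5 tested members, 0 higher and 0 lower, and 0% of all 15883 tested genes in either direction. At an unadjusted p under 0.05 it found 0 members and 1730 genes (10.9%). The median log2 difference was -0.15 over the members, from -0.64 to 0.096 when 1 library was left out, and -0.0084 over all genes.

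MT2A was at 4230 and 9544 normalised reads in MS-275 replicates 1 and 2 and at 5373 and 12102 in Control3 replicates 1 and 2. Replicate 2 was far above replicate 1 in both groups (log2 difference 1.17 in each), whereas MS-275 lay below Control3 by 0.34 on the log2 scale within each number (-0.34 and -0.34). MT1E was at 576 and 1600 with MS-275 and at 1006 and 2428 in Control3. Its within-number log2 differences were -0.80 and -0.60, beside 1.47 and 1.27 between the numbers. MT1X was at 32.9 and 66.8 with MS-275 and at 37.6 and 71.8 in Control3, with within-number differences of -0.19 and -0.10.

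MTF1 and SLC30A1 had the opposite pattern. MTF1 was at 1418 and 938 with MS-275 and at 1117 and 689 in Control3, which is higher with MS-275 by 0.34 and 0.44 on the log2 scale within the numbers. SLC30A1 was at 4069 and 1373 with MS-275 and at 2541 and 909 in Control3, higher with MS-275 by 0.68 and 0.60 within the numbers. Both genes were lower in replicate 2 than in replicate 1, SLC30A1 by a log2 difference of -1.57 with MS-275 and -1.48 in Control3. MT1L was at 274.99 and 683 with MS-275 and at 101 and 246 in Control3. It was the one metallothionein gene with both treated libraries above both controls, by 1.45 on the log2 scale (SE 0.67, limma adjusted p = 0.568), and its within-number differences were 1.44 and 1.47.

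The distance between the replicate numbers ran with transcript length and GC content over all genes. Across 15636 genes the log2 difference of replicate 2 minus replicate 1 had a Spearman's rho with transcript length of -0.45 with MS-275 and -0.47 in Control3, and with GC content of 0.45 and 0.37. Its median was 0.55 and 0.58 in the shortest of 10 equal bins of transcripts and -0.91 and -0.97 in the longest bin. The shorter, more GC-rich metallothionein transcripts and the longer MTF1 and SLC30A1 transcripts lay on the matching sides of this difference in both groups. The summed fibroblast markers were also lower in replicate 2, at 1.81e+06 and 7.67e+05 with MS-275 and at 1.89e+06 and 8.76e+05 in Control3. The plot that joins values by replicate number shows the distance between the numbers beside that between the groups.

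**Figure D3:**
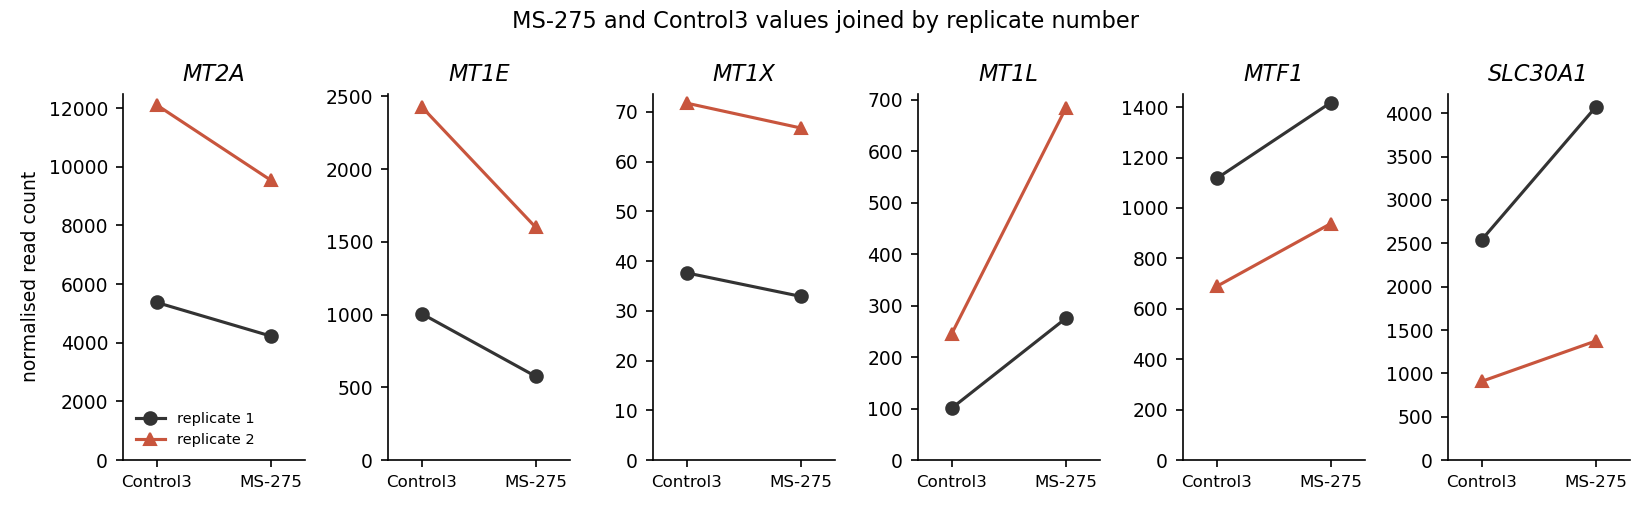
Normalised read counts (linear axes from 0) in Control3 and MS-275, with a line joining the libraries that share a replicate number (circles for replicate 1, triangles for replicate 2). For MT2A, MT1E and MT1X both lines run down from Control3 to MS-275, for MT1L, MTF1 and SLC30A1 both run up, and the distance between the lines is larger than the slope for every gene shown but MT1L.

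The Pyruvate comparison asked what added pyruvate does to these transcripts. MTF1 rose 2.97-fold and SLC30A1 2.03-fold as ratios of the group means, MT1E was 1.52-fold higher, and MT2A was 1.91-fold lower. By the call rule 2 of the 5 tested members were called higher and 0 lower, beside 31% of all 12013 tested genes called higher and 23.1% called lower. At an adjusted p under 0.05 with any fold change, 3 members were higher and 1 was lower, and 80.9% of all tested genes passed that limit, so that the members passed about as often as genes in general. The median log2 fold change was 0.60 over the members and -0.0070 over all genes.

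MT2A was at 7674 and 7872 normalised reads in the Pyruvate libraries and at 14002 and 15750 in Control6. Each pair was tight and the groups were well apart, with a log2 fold change of -0.93 (SE 0.065, limma adjusted p = 1.13e-07) that stopped short of the fold limit. MT1E was at 1387 and 1280 with Pyruvate and at 827 and 928 in Control6, the opposite direction to MT2A, with a log2 fold change of 0.60 (SE 0.10, limma adjusted p = 0.000171). MT1X was at 34.4 and 44.3 with Pyruvate and at 38.3 and 61.8 in Control6. Its groups overlapped, and the log2 difference was -0.31 (SE 0.43, limma adjusted p = 0.513). MT1L was at 274 and 196 with Pyruvate and at 179 and 186 in Control6, a log2 difference of 0.35 (limma adjusted p = 0.151) that was 0.66 with equal totals (limma adjusted p = 0.0139).

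MTF1 was at 706 and 696 with Pyruvate and at 246 and 226 in Control6. This was the largest fold change among the members in this comparison, 1.57 on the log2 scale (SE 0.14, limma adjusted p = 7.49e-07). SLC30A1 was at 484 and 470 with Pyruvate and at 219 and 251 in Control6, with a log2 fold change of 1.02 (SE 0.15, limma adjusted p = 7.09e-05). It lay just past the fold limit, and without Control6 replicate 1 its log2 fold change was 0.93 and MT2A moved past the limit at -1.02.

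These effects stood on a strong trend with base composition. Over 11888 genes, the Pyruvate fold change had a Spearman's rho of -0.70 with the GC content of the longest transcript, against -0.11 for A485 and -0.016 for MS-275. The median log2 fold change was 1.72 in the lowest of 10 equal GC bins and -1.18 in the highest. MT2A, MT1E and MT1X (53.9%, 53.2% and 53.7% GC) were in a bin with a median of -0.64, SLC30A1 (40.7%) in one with a median of 1.77 and MTF1 (46.6%) in one with a median of 0.15. After the length and GC trend was removed, the log2 fold change of MT2A was -0.021 (limma adjusted p = 0.707) and that of SLC30A1 was -0.70 (limma adjusted p = 0.00157), the opposite sign to the deposited scale. MTF1 stayed higher at 0.93 (limma adjusted p = 6.57e-05), below the fold limit, and MT1E passed it at 1.47 (limma adjusted p = 5.20e-08). MT1X turned to 0.55 (limma adjusted p = 0.268), and MT1L was called higher at 1.39 (limma adjusted p = 0.000135). Of the 5 members, MTF1 and MT1E were thus the ones higher at an adjusted p under 0.05 on both scales.

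**Figure D4:**
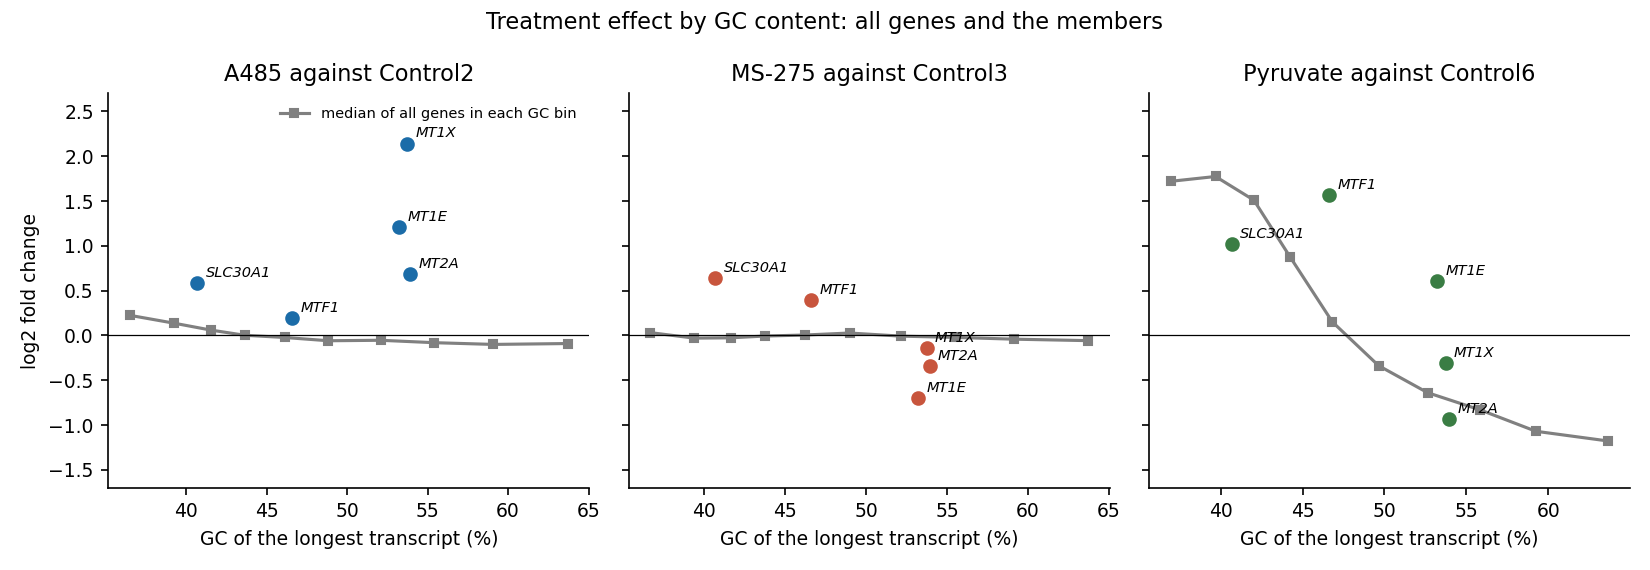
Log2 fold change against the GC content (%) of the longest transcript, one panel per comparison, with grey squares for the median of all genes in each of 10 equal bins of GC content and coloured points for the 5 members listed in all 3 tables. The grey line is near 0 for A485 and MS-275 and runs from 1.72 to -1.18 for Pyruvate, where MTF1 and MT1E lie above the line, MT2A just below it and SLC30A1 below it.

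The 3 effects were then set against each other gene by gene, each as treated minus its own control, with no library shared between comparisons. Between Pyruvate and A485, limma found a difference at an adjusted p under 0.05 for 4 of the 5 shared members, beside 65.4% of 11993 genes. MT2A differed by -1.62 on the log2 scale (SE 0.19, adjusted p = 0.000165), with 0.68 under A485 and -0.93 under Pyruvate. MT1X differed by -2.45 (SE 0.59, limma adjusted p = 0.00657) and MT1E by -0.60 (SE 0.19, limma adjusted p = 0.0242), both with the higher effect under A485. MTF1 differed by 1.37 (SE 0.31, limma adjusted p = 0.00463), with the higher effect under Pyruvate. Once the trend with length and GC had been taken out, the differences were 0.041 for MT1E (limma adjusted p = 0.848) and 0.46 for MTF1 (0.162), so that neither passed, and -0.91 for MT2A (0.00339) and -1.75 for MT1X (0.0342).

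Between MS-275 and A485 the test, fitted without the replicate number, passed for 0 of 5 members, beside 3.81% of 15130 genes. MT1E (-1.91, SE 0.78) and MT1X (-2.29, SE 0.78) had an unadjusted p under 0.05 there, with limma adjusted p of 0.263 and 0.186. Between Pyruvate and MS-275 it passed for 0 of 5 members, beside 41.1% of 12005 genes, and MTF1 (1.18, SE 0.44, limma adjusted p = 0.0702) was the member with an unadjusted p under 0.05. The intervals of the MS-275 effects were wide in this fit, as the plot of effects shows. With the replicate number as a block, more members passed in both contrasts, as given with the processing below. The share of all genes passing in those fits was not counted.

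**Figure D5:**
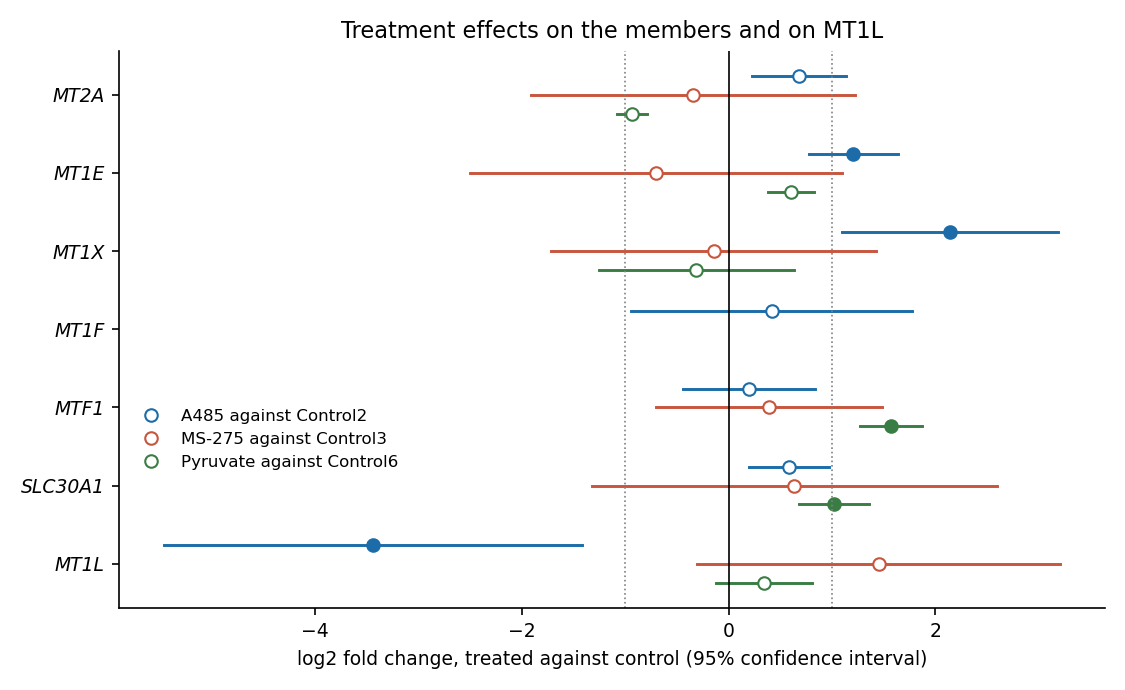
Log2 fold change, treated against control, of each listed member and of MT1L with 95% confidence intervals from limma, one colour per comparison, filled points for called genes and dotted lines at the fold limit of 1 in each direction. Filled points are MT1E, MT1X and MT1L for A485 and MTF1 and SLC30A1 for Pyruvate. The MS-275 intervals, fitted without the replicate number, all cross 0.

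Other genes of metal handling were read from named lists. Most SLC30 zinc transporters other than SLC30A1 move zinc out of the cytosol, into vesicles or organelles or out of the cell. Under A485, 1 of 5 tested exporters was called higher and 0 lower, beside 3.31% and 7.06% of all genes. The called gene was SLC30A4, an exporter into vesicles, at 1795 and 2017 against 607 and 906 (log2 1.36, SE 0.25, limma adjusted p = 0.0228). Its call was lost without the limma intensity trend (limma adjusted p = 0.0835). With 1 library left out, its log2 fold change ran from 1.07 to 1.65. Under MS-275, 0 of 6 were called, and SLC30A3 had the smallest p, at 49.4 and 42.9 against 7.92 and 4.04 (log2 2.81, SE 0.59, limma adjusted p = 0.246), followed by SLC30A4 with a log2 difference of 0.30.

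Under Pyruvate, 4 of 5 exporters were called higher and 0 lower, beside 31% and 23.1% of all genes. With the length and GC trend removed, 1 was called higher and 1 lower, beside 1871 and 1759 of all 11888 tested genes. SLC30A9, a mitochondrial zinc transporter, was at 1482 and 1655 against 124 and 143 (log2 3.55), and SLC30A6 rose by 2.49, SLC30A4 by 1.28 and SLC30A5 by 1.24, where SLC30A5 and SLC30A6 load zinc into the secretory pathway. With the trend removed SLC30A9 was at 1.69 and SLC30A6 at 0.71, and SLC30A4 and SLC30A5 had the opposite sign (-0.59 and -0.41).

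The SLC39 zinc importers work in the other direction and bring zinc into the cytosol. Under A485, 0 of 10 were called, and the smallest p belonged to SLC39A8 (60.7 and 27.6 against 6.42 and 12.2, log2 2.08, limma adjusted p = 0.103) and SLC39A14 (2795 and 4734 against 6213 and 5990, log2 -0.75, limma adjusted p = 0.123). Under MS-275, 0 of 10 were called, with log2 differences of 0.72 for SLC39A14 and 0.31 for SLC39A9, the genes with the smallest p. Under Pyruvate, 3 of 8 were called higher and 3 lower, beside 31% and 23.1% of all genes. SLC39A6 (log2 2.39) and SLC39A9 (1.21) rose, and SLC39A13 (-1.73) and SLC39A3 (-1.54) fell. With the trend removed 1 was called higher and 0 lower: SLC39A6 was at 1.03, SLC39A9 at -0.027, SLC39A13 at -0.66 and SLC39A3 at -0.59.

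Copper-handling genes were included because metallothioneins also bind copper. Under A485, 1 of 10 was called higher, beside 3.31% of all genes. It was COX17, the chaperone that carries copper to mitochondria, at 882 and 835 against 460 and 389 (log2 1.02, SE 0.22, limma adjusted p = 0.0364). The COX17 call was lost without the limma intensity trend (limma adjusted p = 0.0809). With 1 library left out, the COX17 log2 fold change ran from 0.90 to 1.14. Under MS-275, 0 of 10 were called, and ATP7B (log2 0.73) and the copper importer SLC31A1 (log2 0.57) had the smallest p. Under Pyruvate, 1 of 10 was called higher and 3 lower, beside 31% and 23.1% of all genes. The copper pump ATP7A rose by 2.93, whereas the related pump ATP7B (-2.10) and the copper chaperones ATOX1 (-1.61) and CCS (-1.28) fell. With the trend removed 0 were called higher and 2 lower, with ATP7A at 0.97, ATP7B at -1.82, ATOX1 at -2.43 and CCS at -0.064.

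Of 10 tested genes of the metal and oxidative stress list, 5 were called lower and 0 higher under A485, beside 7.06% and 3.31% of all genes. NQO1, a quinone reductase, was at 1690 and 1315 against 17924 and 20360 (log2 -3.68, SE 0.19, limma adjusted p = 0.000989). SLC7A11, the cystine importer, was at 105 and 266 against 18151 and 12749 (log2 -6.50), and TXNRD1 (-2.53) and SRXN1 (-2.92), of the thioredoxin and peroxiredoxin systems, fell as well. With 1 library left out, the log2 fold change ran from -2.81 to -2.26 for TXNRD1 and from -3.11 to -2.73 for SRXN1. Under MS-275, 0 of 10 were called, and SRXN1 (647 and 719 against 148 and 187, log2 2.03, limma adjusted p = 0.200) and TXNRD1 (log2 0.94, limma adjusted p = 0.368) had the smallest p, with both treated libraries above both controls. Under Pyruvate, 4 of 10 were called higher and 3 lower, beside 31% and 23.1% of all genes. They included HSPH1 (2.59), GCLC (2.17) and TXNRD1 (1.23), which rose, and the chaperone gene DNAJB1 (-1.34), which fell. With the trend removed 1 was called higher and 1 lower, with GCLC at 1.28, HSPH1 at 0.84, TXNRD1 at 0.41 and DNAJB1 at -0.61.

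Across the 12 IMR90 libraries, after the mean of each experiment was subtracted, the members fell into 2 loosely correlated groups. Pearson's r was 0.76 between MT1E and MT1X, 0.66 between MT1X and MT2A and 0.60 between MT1E and MT2A. It was 0.79 between MTF1 and SLC30A1. Across the groups, MT2A had -0.74 with SLC30A1 and -0.68 with MTF1. The other pairs across the groups were weaker: MT1E had -0.28 with SLC30A1 and -0.0037 with MTF1, and MT1X had -0.10 and -0.24. Among 11984 genes, those most like MT2A were COMMD1 (r = 0.97), PRKAB1 (0.97) and CMTM3 (0.97), and those most like SLC30A1 were EIF5A2 (0.99), BRWD3 (0.98) and RALGAPA1 (0.98). These libraries share the replicate-number difference of the MS-275 experiment and the GC trend of the Pyruvate experiment, so the correlations are a description with no test.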

How the data were processed

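Bulk RNA-seq libraries of IMR90 cells, 2 per group, were analysed as deposited. The authors trimmed reads with Trim Galore (0.6.10), aligned them with HISAT2 (2.2.1) to hg38, sorted them with SAMtools (1.7), counted them per gene with featureCounts (2.0.6) and divided the counts by DESeq2 (1.34.0) size factors, so that the deposited values are a normalised signal per gene, here called normalised reads. The annotation, strand setting and treatment of reads that map to several genes were not given in the sources used here. Libraries were prepared by either of 2 sequencing companies, and which one made each library was not given. Low values were whole multiples of 1 step per library (100% whole, tolerance 0.01). For the MS-275 and Pyruvate tables it could not be settled that this step is 1 read, so their depth is an estimate and no count test was run on them.

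Each treatment was compared with its own control by limma (3.58.1) in R (4.3.3), with an intensity trend, on log2(value + 1) for genes with a mean of at least 10, and Benjamini-Hochberg adjustment over all tested genes. Fold changes are on this log2 scale and understate the change of low genes. Genes were called at an adjusted p under 0.05 and a log2 fold change above 1 in size. Differences between effects were limma contrasts over both comparisons. The limma fit of treated against control was tested on simulated data first, and the contrasts between effects were not. Transcript lengths and GC were computed from GENCODE transcripts (hg38), and promoters were taken from RefSeq (GRCh38.p14). For A485 alone, edgeR (4.0.16) and DESeq2 (1.42.0) were also run on the recovered reads, and edgeR called 542 genes higher and 1122 lower, DESeq2 782 and 1543.

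Alternatives changed the pseudocount, filter, scaling, variance trend, replicate block, length and GC trend, fold limit and libraries. The members and lists were chosen with earlier results of these data known. Named were all members, up to 4 called genes per list by adjusted p or the 2 with the smallest p where none was called, and the 3 genes most correlated with MT2A and with SLC30A1. Every pathway list and marker list is reported.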

Additional observations from a re-analysis of the deposited data

Results flagged for a closer look

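Mouse orthologues of the set were read in the muscle libraries of the same series, which the comparisons above did not use. These flags come from data outside the IMR90 measurement, with muscle controls as the background. Mt1 and Mtf1 were listed in both muscle tables, and Mt2 and Slc30a1 were not analysed here.

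Mtf1 was at 243 and 221 normalised reads in the MS-275 muscle libraries and at 98.6 and 97.2 in Control4, a log2 fold change of 1.23 (SE 0.27, limma adjusted p = 0.0322). Mitochondrial genes took 21.9% to 22.0% of reads in the MS-275 muscle libraries and 30.8% to 39.0% in Control4, and scaling the libraries to equal totals put the all-gene median at 0.97. The part of these in the Mtf1 value was not tested. Mt1 in muscle given NALA was at 13.4 and 15.9 against 34.4 and 38.1 in Control5, a log2 fold change of -1.25 (SE 0.40, limma adjusted p = 0.0317). With 1 library left out, the log2 fold changes of Mtf1 and Mt1 kept their sign and stayed above 1 in size. Such fits had 1 library in a group, so they could not decide whether either call held. The Mt1 call was lost with a pseudocount of 10 (-0.91) and with equal library totals (-1.07).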

How the results depend on the processing

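With equal library totals, quantile normalisation and the length and GC trend removed, the A485 members' median was 1.03, 0.89 and 0.78, the last also with the replicate block, and without the limma variance trend 0 members were called higher. For Pyruvate, 1 member was called higher with a pseudocount of 10, beside 3624 of all 12013 tested genes, and with quantile normalisation, beside 3143. With the length and GC trend removed, 1 member was called higher, beside 1871 of 11888 genes, and 1 with the replicate block added, beside 1880. At a fold limit of 0.58, 1 member was called lower, beside 4096 of 12013 genes. The members' median was 0.81 with a minimum mean of 50 and 0.92 with equal totals. With the length and GC trend removed, with or without the replicate block, Pyruvate values turned sign for MT1X (0.55), SLC30A1 (-0.70), SLC30A4 (-0.59), SLC30A5 (-0.41) and SLC39A9 (-0.027), and MT1L turned with quantile normalisation (-0.31). The Pyruvate minus A485 difference of MT1E was 0.041 with the trend removed. MS-275 minus A485 passed for 3 members with the replicate block and for 1 with the trend removed. Pyruvate minus MS-275 passed for 1 member with equal totals, 3 with the replicate block and 1 with the trend removed. How many of all genes passed these contrasts under these settings was not counted, so the counts cannot be read as particular to the members. Equal totals put the all-gene median at 0.40 (A485), -0.15 (MS-275) and 0.30 (Pyruvate), where calls were 4402 higher and 1741 lower against 3726 and 2777. The cause of these shifts was not tested.

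Fits that left out 1 library had 1 library in a group, so only their log2 values are given. Log2 ranges that crossed 0 were -0.15 to 0.54 for MTF1 under A485, -0.65 to 0.028 for MT1X under Pyruvate and -0.14 to 0.26 for Mtf1 under NALA in muscle. Under MS-275 they were -0.64 to 0.096 for the members' median, -1.44 to 0.034 for MT1E, -0.64 to 0.35 for MT1X, -0.93 to 0.24 for MT2A, -0.15 to 1.42 for SLC30A1 and -0.018 to 0.62 for SLC30A4. Where a group was left with 1 library, that library was assumed to vary like the others.

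Replicate numbers were shared by treated and control groups, but no label states what a number marks. Over genes, the difference between replicates 2 and 1 correlated between treated and control at 0.73 for MS-275, 0.32 for A485 and 0.0020 for Pyruvate. With the replicate block, the MS-275 calls over all genes went from 0 to 1230 higher and 953 lower, with 0 members past the fold limit. The limma adjusted p was then 0.000389 for MT1E, 0.000398 for SLC30A1, 0.0140 for MT2A and 0.0277 for MTF1. How many of all genes had an adjusted p under 0.05 with any fold change in this fit was not counted. Whether the members passed more often than genes in general is therefore not known. The blocked fit called MT1L (adjusted p = 1.73e-05), SLC30A3 (0.00166) and SRXN1 (1.82e-07) higher, with 3 genes of the stress list called higher. Under A485 the blocked fit gave a limma adjusted p of 0.0303 for MT2A and 0.0323 for SLC30A1. The MS-275 minus A485 differences were at 0.000478 for MT1E and 0.0119 for MT1X. In muscle given MS-275 the correlation was -0.11, and a block with crossed numbers, chosen after seeing the data, called 1031 genes higher and 699 lower against 877 and 662. edgeR and DESeq2 were run on the A485 table alone among the IMR90 tables.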

Other observations

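In muscle given MS-275, Mt1 was at 57.4 and 58.1 normalised reads against 10.4 and 52.0 in Control4. The control libraries differed widely from each other, and the log2 difference of 1.26 (SE 0.74) had a limma adjusted p of 0.279. In muscle given NALA, Mtf1 was at 117 and 88.0 against 93.2 and 102 in Control5, where the groups overlapped, with a log2 difference of 0.060 (SE 0.20, limma adjusted p = 0.896).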
